A study of Mus musculus with 18 samples.

Results

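Of 35 genes known from macrophages, 32 had an array probe that detected signal in T cells sorted from B16F10 melanoma or from spleen. Probes were named by the platform table, and a probe was used if its detection p-value was under 0.05 on at least 3 of the 18 arrays. The 35 genes had 60 named probes on the array for 34 of them, and 48 probes of 32 genes passed, among the 27474 probes that passed on the whole array. Each gene is given by its brightest passing probe, and 14581 genes were tested in all. Just inside the threshold lay Itgam and Cybb, each detected on 3 arrays. Just outside it lay Fcgr1, detected on 1 array, and Msr1, detected on 0, and expression of Spp1 was not analysed here. The members that passed fall into 13 genes of receptors and macrophage identity, 7 of resident and secreted products, 4 of Fc receptors and their adaptors, 6 of lipid handling and 2 of tissue remodelling and arginine use.

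Macrophages engulf dying cells, debris and lipid, and they carry Fc receptors that bind antibody and signal through shared adaptor proteins. They secrete lysozyme and complement C1q, and inside tumours they often take up a lipid-laden and matrix-degrading state. T cells are not known for most of these genes, so RNA of another cell type in a sorted T cell sample can show in them. Several members are not limited to macrophages: Tyrobp and Fcer1g also serve natural killer cells, Clec10a dendritic cells, Fcgr2b B cells and Gpnmb pigment cells.

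All mice were female C57BL/6 animals of the genotype Foxp3-GFP-DTR-CD90.1, a Foxp3 reporter, and all carried B16F10 melanoma from 50000 cells given under the skin. Tumour and spleen of these mice, taken at a tumour diameter of about 10 mm, each gave 3 sorted populations, and cells were pooled ahead of the sort. Regulatory T cells (Treg) were CD4+CD25+Foxp3+ CD8- CD11b-, conventional T cells (Tconv) were CD4+Foxp3- CD8- CD11b-, and CD8 cells were CD8+ CD4- CD11b-. CD11b, the product of Itgam, is a protein of macrophages and other myeloid cells, so the gate set cells with it aside in every group. These 6 groups held 3 arrays each, and each of the 3 Illumina BeadChips carried 1 array of every group. The replicate number is the BeadChip, and a group always lay in the same place on its BeadChip, so place and group cannot be told apart. The labels do not tie replicates to separate mice, and p-values then cover only the spread among these samples, which may be technical. In pooled cells, fewer cells of a type and less RNA per cell cannot be told apart.

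Between 38.0 and 45.2 percent of probes were detected on each array, and median signals ran from 79 to 88.1. Levels below are log2 intensities after background correction and quantile normalization, with a floor near 4, and the number of arrays limits the precision. The mean of 7 T cell genes was 9.41 to 9.78 on all 18 arrays, and 0 of the 7 passed in any comparison of tumour with spleen. The mean of the 32 macrophage genes was 5.63 to 6.54 on the tumour arrays and 4.37 to 5.20 on the spleen arrays, so the 2 ranges did not overlap. Arg1, Clec10a, P2ry6, Mmp12, Dab2 and Trem2 passed the filter only through the tumour arrays, which favoured this gap, so it is a description only. Other lists moved with tissue as well. The mean of 5 erythroid genes was 7.44 to 10.1 in spleen and 4.14 to 6.38 in tumour, with 5 of 5 lower in tumour on average over the populations. The mean of 7 melanocyte genes was 4.48 to 5.93 in tumour and 4.33 to 4.65 in spleen, so these ranges overlapped. On average over the populations, 3 of 7 were higher (Pmel, Dct and Tyrp1). Mlana did not pass at 0.85 ± 0.26 (adjusted p = 0.0796), and the defining gene Sox10 lay near the floor on every array, at 4.10 to 4.36. In single populations, the same 3 melanocyte genes passed in Treg, and 0 of 7 passed in Tconv or in CD8 cells. On average over the populations, of 4 B cell genes 1 was lower, and of 5 neutrophil genes 1, Mmp9, was higher. In the same comparison 0 of 6 dendritic cell genes passed, and 2 of 4 natural killer cell genes were higher, 1 of which is the member Tyrobp. In tumour against spleen Treg, Mmp9 rose by 2.82 ± 0.32 (limma adjusted p = 1.27e-04). The dendritic cell gene Zbtb46, detected on 3 arrays, rose there by 0.99 ± 0.20 (adjusted p = 0.0122). Neither passed in Tconv or CD8 cells. The part of these cells in the macrophage gene result was not tested.

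**Figure D1:**
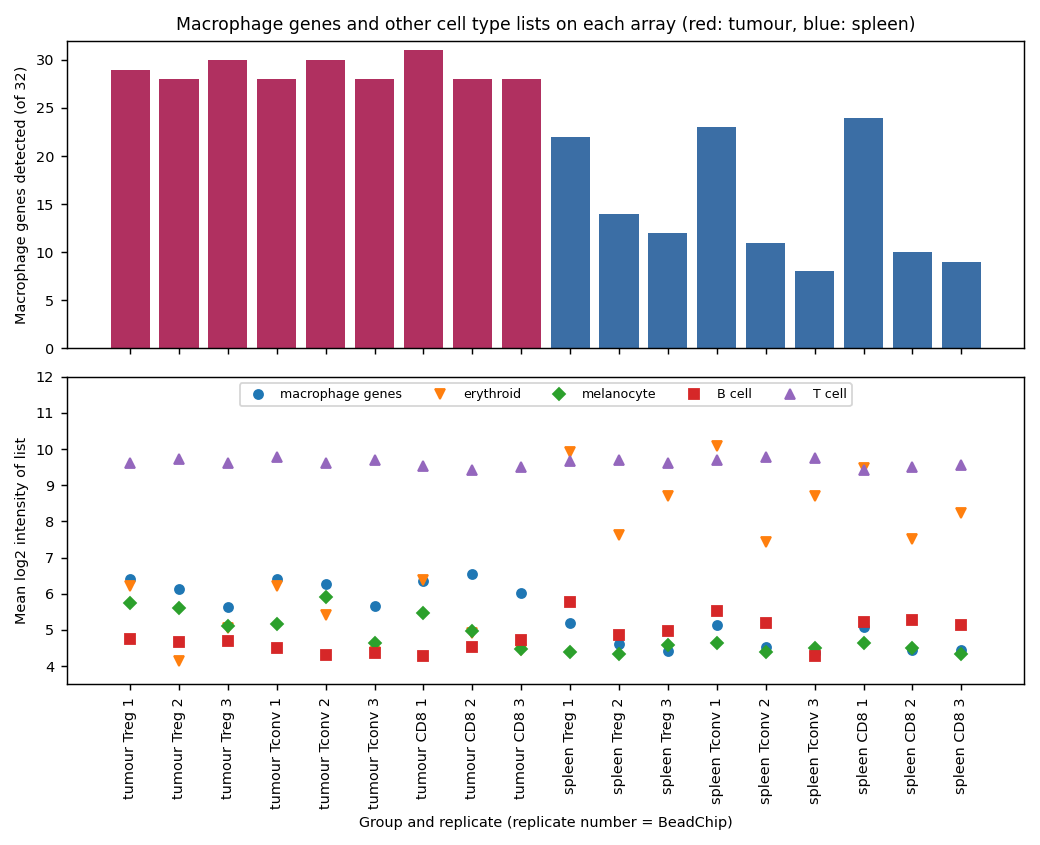
The upper panel gives the number of the 32 macrophage genes detected on each array, and the lower panel the mean log2 intensity of 5 gene lists on the same arrays, 3 arrays for each of 6 groups. Tumour arrays (red) detected 28 to 31 of the genes, spleen arrays (blue) of BeadChip 1 detected 22 to 24, and those of BeadChips 2 and 3 detected 8 to 14.

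The question of every tumour against spleen comparison here was which macrophage genes differed between the tissues in cells of the same sort. In each population some macrophage genes rose in tumour and 0 fell, beside 0.713 percent of all genes lower in Treg, 0.192 percent in Tconv, 0.288 percent in CD8 cells and 1.76 percent on average. Clec10a, Gpnmb, Lpl, P2ry6, Mmp12, Dab2 and Fcer1g passed in all 3 populations (limma, Benjamini-Hochberg adjusted over all genes tested, threshold 0.05). In Treg these 7 were the members that rose, beside 1.73 percent of all genes. In Tconv 8 rose, the same 7 and Arg1, beside 0.994 percent of all genes. In CD8 cells 9 rose, the same 7 with Arg1 and Cd68, beside 0.878 percent. Averaged over the populations, 21 rose, beside 3.45 percent of all genes. The median difference over the 32 members was 0.93 for Treg, 1.16 for Tconv and 1.33 for CD8 cells on the log2 scale, while the median over all genes tested was -0.00435, -0.0111 and -0.0136.

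The detection filter bears on these counts and medians. Detection on fewer than 3 spleen arrays applied to 9 members, beside 18.0 percent of all genes tested. Of these 9, Cd14, Itgam and Cybb were also detected on fewer than 3 tumour arrays. The other 6, Arg1, Clec10a, P2ry6, Mmp12, Dab2 and Trem2, passed the filter only through the tumour arrays, where they are high. Their selection favoured a difference, and the counts and medians are no support for one. Without a filter, 7, 7 and 9 members rose in Treg, Tconv and CD8 cells, and 16 on average, beside 1.07, 0.597, 0.497 and 2.02 percent of 21946 genes. Treating the BeadChip as a block gave 9, 10, 12 and 22 members, beside 1.79, 1.08, 0.885 and 3.51 percent of all genes, and it added Lyz1 and Lyz2 in each population, Tyrobp in CD8 cells and C1qa on average. The plot of differences by gene shows the 3 populations side by side.

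**Figure D2:**
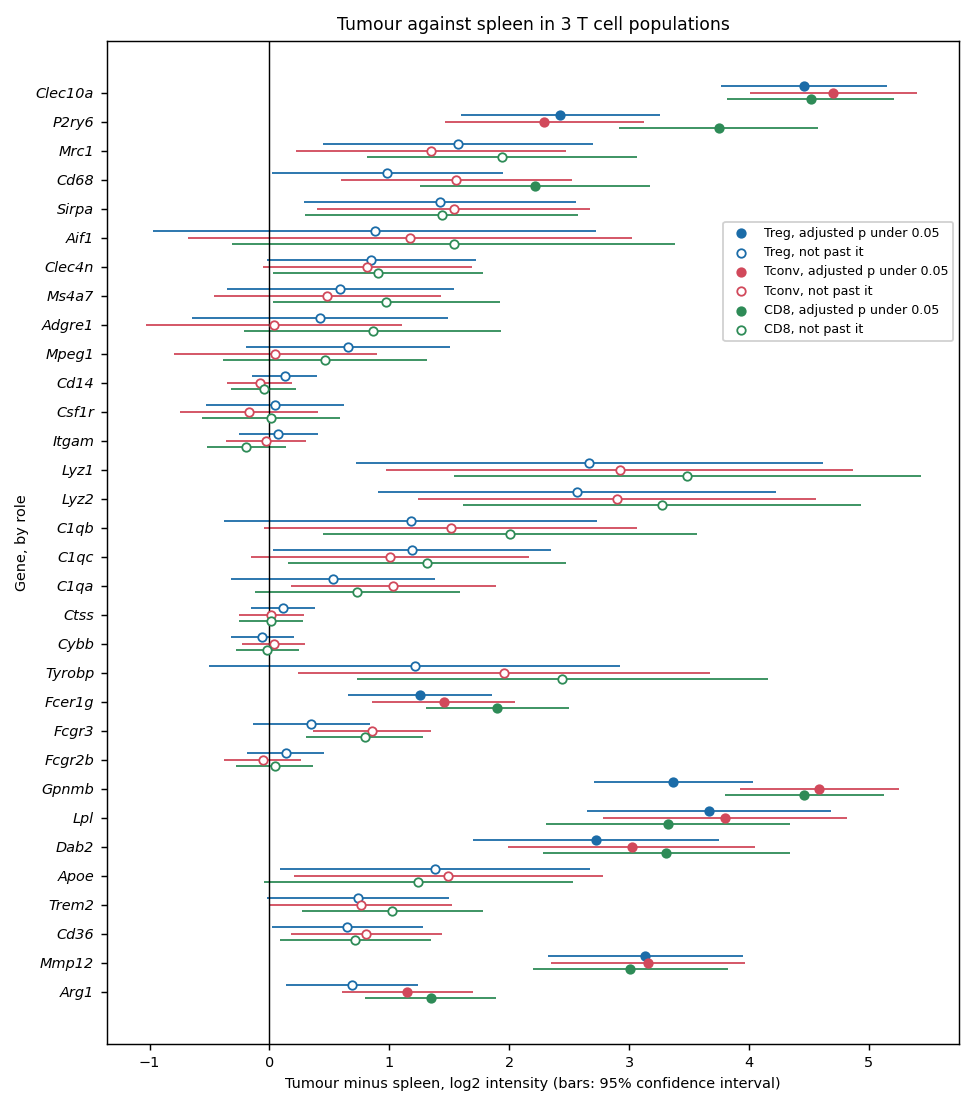
Tumour minus spleen difference in log2 intensity of each of the 32 macrophage genes, grouped by role, in Treg, Tconv and CD8 cells (3 arrays in each group). Points are the fitted differences, bars their 95% confidence intervals, and filled points passed at adjusted p under 0.05. Clec10a, Gpnmb, Lpl, Dab2 and Mmp12 stand at 2.72 or more in all 3 populations, while Csf1r, Cd14, Itgam, Ctss, Cybb and Fcgr2b lie near 0.

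Among receptors and identity genes, 2 of 13 rose in Treg, 2 in Tconv, 3 in CD8 cells and 6 on average. The shares of all genes that rose were 1.73, 0.994, 0.878 and 3.45 percent. Clec10a and P2ry6, counted in every population, passed the filter only through the tumour arrays, so the filter favoured these counts. Clec10a, a lectin that binds galactose sugars on macrophages and dendritic cells, had the largest differences. Its levels on BeadChips 1, 2 and 3, an order kept below, were 8.23, 8.96 and 8.86 in tumour Treg, 9.42, 9.15 and 8.10 in Tconv, and 9.03, 9.37 and 8.57 in CD8 cells. In spleen they were 4.08, 4.35 and 4.24 in Treg, 4.28, 4.11 and 4.16 in Tconv, and 5.07, 4.20 and 4.16 in CD8 cells, and 2 of the 9 spleen arrays detected it. Every tumour array was above every spleen array, by a wide gap. Clec10a rose by 4.46 ± 0.33 (adjusted p = 2.51e-06) in Treg and by 4.51 ± 0.33 (adjusted p = 5.25e-06) in CD8 cells, as difference ± SE, and it was at least 24.9-fold higher in Tconv, where 0 of 3 spleen arrays detected it (adjusted p = 1.49e-06). For such groups the fold is a bound, from the tumour mean and, on each spleen array, the higher of the lowest signal of detected probes and the gene's own signal.

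P2ry6, a receptor for the nucleotide UDP that macrophages use to sense damaged cells, read 7.46, 7.12 and 6.15 in tumour Treg, 7.06, 5.70 and 7.31 in Tconv, and 7.71, 8.09 and 7.89 in CD8 cells. The spleen arrays read 4.22, 5.11 and 4.12 in Treg, 4.23, 4.68 and 4.28 in Tconv, and 4.07, 4.17 and 4.21 in CD8 cells, with 2 of 9 detected. Tumour and spleen arrays did not overlap, and the 3 tumour CD8 arrays were the highest, a difference between populations that did not pass (adjusted p = 0.337 against Tconv). P2ry6 rose by 2.43 ± 0.39 (adjusted p = 0.00228) in Treg and by 2.29 ± 0.39 (adjusted p = 0.00631) in Tconv, and it was at least 12.6-fold higher in CD8 cells (adjusted p = 1.16e-04).

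Cd68, a lysosomal membrane protein of phagocytes, read 6.59, 5.91 and 5.84 in tumour Treg, 6.36, 7.08 and 5.45 in Tconv, and 6.58, 7.04 and 6.52 in CD8 cells. In spleen it read 5.23, 6.00 and 4.16 in Treg, 4.55, 5.06 and 4.59 in Tconv, and 5.16, 4.14 and 4.19 in CD8 cells, where 6 of 9 arrays detected it. The highest spleen array, Treg on BeadChip 2, lay above the lowest tumour arrays. Cd68 rose by 2.21 ± 0.45 (adjusted p = 0.0251) in CD8 cells and by 1.59 ± 0.26 (adjusted p = 0.00153) on average, while the Treg and Tconv values were 0.98 ± 0.45 and 1.56 ± 0.45 (adjusted p = 0.411 and 0.148). The CD8 call was lost without any 1 of 4 of the 6 CD8 arrays.

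Mrc1, the mannose receptor of macrophages, read 6.60, 6.35 and 4.72 in tumour Treg, 6.55, 6.56 and 5.02 in Tconv, and 5.24, 6.77 and 6.36 in CD8 cells. Its spleen levels were 4.34, 4.10 and 4.50 in Treg, 5.50, 4.30 and 4.28 in Tconv, and 4.23, 4.10 and 4.22 in CD8 cells, with 3 of 9 arrays detected. Tumour Treg and Tconv were low on BeadChip 3, and 1 spleen Tconv array reached into their range. Mrc1 rose by 1.62 ± 0.30 (adjusted p = 0.00440) on average and passed in 0 of the single populations.

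Sirpa, an inhibitory receptor that reads CD47 on other cells, read 6.64, 6.18 and 5.37 in tumour Treg, 7.24, 5.24 and 5.63 in Tconv, and 6.25, 6.48 and 5.70 in CD8 cells. The spleen values were 5.60, 4.18 and 4.13 in Treg, 5.21, 4.10 and 4.21 in Tconv, and 4.90, 5.13 and 4.09 in CD8 cells. The spleen Treg array of BeadChip 1 lay within the tumour range. Sirpa rose by 1.47 ± 0.31 (adjusted p = 0.00994) on average and passed in 0 single populations.

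Clec4n, a lectin that recognises fungal sugars, read 5.49, 5.71 and 4.39 in tumour Treg, 5.71, 5.15 and 4.69 in Tconv, and 6.07, 6.28 and 4.72 in CD8 cells. In spleen it gave 4.28, 4.05 and 4.72 in Treg, 4.82, 4.15 and 4.13 in Tconv, and 4.95, 4.59 and 4.81 in CD8 cells. The tumour arrays of BeadChip 3 were within the spleen range, so the groups overlapped. Clec4n rose by 0.86 ± 0.24 (adjusted p = 0.0489) on average, a call that was lost without any 1 of 14 of the 18 arrays.

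Adgre1, an adhesion-class receptor that marks mouse macrophages, read 5.21, 5.89 and 4.67 in tumour Treg, 5.24, 4.69 and 4.96 in Tconv, and 5.70, 6.27 and 5.21 in CD8 cells. Its spleen levels were 5.62, 4.55 and 4.33 in Treg, 5.43, 4.67 and 4.69 in Tconv, and 6.18, 4.17 and 4.25 in CD8 cells. The 3 spleen arrays of BeadChip 1 were as high as tumour arrays, and 5 of 9 spleen arrays were above the lowest tumour array. The average difference was 0.44 ± 0.29 (adjusted p = 0.509), with 6 of 9 pairs of the same population and BeadChip higher in tumour.

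Csf1r, the receptor for the growth factor on which most macrophages depend, read 4.46, 4.46 and 4.35 in tumour Treg, 4.28, 4.54 and 4.22 in Tconv, and 5.15, 4.16 and 4.28 in CD8 cells. In spleen Csf1r read 4.72, 4.16 and 4.24 in Treg, 5.12, 4.22 and 4.20 in Tconv, and 4.70, 4.37 and 4.48 in CD8 cells. All values lay near the floor, with 9 of 18 arrays detected and no separation by tissue, and the average difference was -0.03 ± 0.16 (adjusted p = 0.949). Itgam, the gene of the CD11b used for the gate, read 4.19, 4.20 and 4.31 in tumour Treg, 4.14, 4.13 and 4.12 in Tconv, and 4.32, 4.27 and 4.12 in CD8 cells. Its spleen values were 4.12, 4.27 and 4.09 in Treg, 4.14, 4.09 and 4.24 in Tconv, and 4.87, 4.30 and 4.12 in CD8 cells, with the highest on a CD8 array of BeadChip 1. Itgam differed by -0.05 ± 0.09 on average (adjusted p = 0.852). A probe at the floor shows only that it was not well above background, and says nothing of protein on the cell.

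The other 4 genes of this role did not pass. Cd14, a coreceptor for bacterial lipopolysaccharide, stayed between 4.06 and 4.50 on all 18 arrays, with 4 detected. Aif1, an actin-binding protein of macrophages and microglia, ran from 5.30 to 7.86 in tumour and from 4.20 to 7.65 in spleen, the widest spleen range of the role, and differed by 1.19 ± 0.50 on average (adjusted p = 0.234). Mpeg1, a pore-forming protein of phagocytes, differed by 0.39 ± 0.23 (adjusted p = 0.448). Ms4a7, a membrane protein of macrophages, differed by 0.68 ± 0.26 (adjusted p = 0.172).

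**Figure D3:**
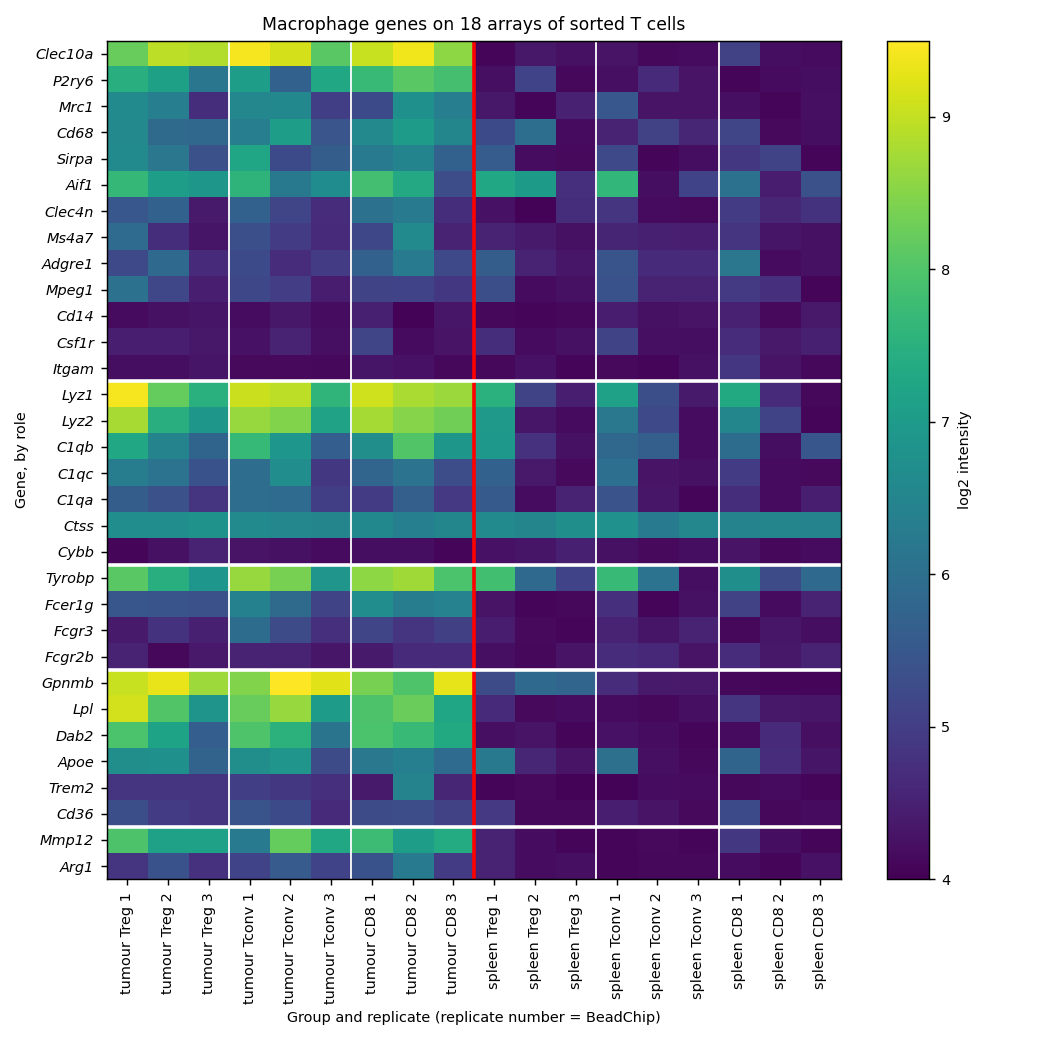
Log2 intensity of the 32 macrophage genes (one line each, grouped by role with white rules) on the 18 arrays, ordered by group and BeadChip; the red rule parts tumour from spleen. Clec10a, Gpnmb, Lpl, Dab2, P2ry6 and Mmp12 are bright on all 9 tumour arrays and dark on most spleen arrays, while Lyz1, Lyz2 and Tyrobp are also bright on spleen arrays of BeadChip 1.

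Among resident and secreted products, 0 of 7 rose in any single population, and 4 rose on average, beside 3.45 percent of all genes. With the BeadChip as a block, 2 rose in each population, beside 1.79, 1.08 and 0.885 percent of all genes. Lyz1 and Lyz2 encode lysozyme, the enzyme that cuts bacterial cell walls, and they are neighbours on chromosome 10 with 5522 bases between the genes. Their promoter windows, 250 bases before to 50 after the annotated start, are shown because the genes moved together on the arrays and their sequences are close. Sequences come from RefSeq on GRCm38.p6, 5′ to 3′, with matches to AGGAAGT or its reverse complement, the core letters bound by the myeloid factor PU.1, in capitals. The Lyz1 window is chr10:117292819-117293118 and the Lyz2 window chr10:117282223-117282522, both on the minus strand.
Lyz1: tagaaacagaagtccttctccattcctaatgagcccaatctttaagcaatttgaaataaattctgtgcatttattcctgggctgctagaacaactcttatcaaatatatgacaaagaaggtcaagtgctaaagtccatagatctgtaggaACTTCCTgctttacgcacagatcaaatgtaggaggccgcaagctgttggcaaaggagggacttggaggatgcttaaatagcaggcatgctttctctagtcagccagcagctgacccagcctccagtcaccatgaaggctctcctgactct
Lyz2: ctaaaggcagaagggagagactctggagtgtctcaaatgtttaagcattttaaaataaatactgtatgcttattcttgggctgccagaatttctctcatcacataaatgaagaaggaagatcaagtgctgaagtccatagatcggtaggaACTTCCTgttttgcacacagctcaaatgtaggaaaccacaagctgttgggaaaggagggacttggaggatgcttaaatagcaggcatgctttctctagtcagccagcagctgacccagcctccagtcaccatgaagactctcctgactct
Aligned without gaps, the first 150 bases were 40 percent identical, the second 150 bases 94 percent and the last 100 bases 99 percent. In the first 150 bases, shared stretches are shifted between the windows, so 40 percent understates how alike that part is. Each window has its match at base 151. Among the members, 30 windows of 23 genes were given, and 9 held the letters on either strand (30 percent), against 9.35 percent of 32851 windows of all genes. The 9 genes were C1qb, C1qc, Ctss, Fcgr1, Lyz1, Lyz2, Mmp12, Mrc1 and Spp1. A match is a description of letters, not of binding.

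Lyz1 read 9.42, 8.20 and 7.48 in tumour Treg, 9.06, 8.95 and 7.61 in Tconv, and 9.09, 8.79 and 8.68 in CD8 cells. In spleen it read 7.51, 5.13 and 4.46 in Treg, 7.14, 5.32 and 4.39 in Tconv, and 7.33, 4.65 and 4.12 in CD8 cells. Tumour arrays were high throughout, and the spleen Treg array of BeadChip 1 lay just above the lowest of them, whereas the spleen arrays of BeadChips 2 and 3 lay well below. Lyz1 rose by 3.02 ± 0.53 (adjusted p = 0.00246) on average, and single populations gave 2.67 ± 0.91 for Treg, 2.92 ± 0.91 for Tconv and 3.48 ± 0.91 for CD8 cells (adjusted p = 0.193, 0.200 and 0.0968). With the BeadChip as a block these passed at adjusted p = 0.00741, 0.00664 and 0.00202. All these Lyz1 values rest on 1 probe. The 2 other Lyz1 probes did not pass the filter, each detected on 2 tumour arrays and 0 spleen arrays, at 4.06 to 5.27.

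Lyz2, the lysozyme gene used as a myeloid marker in mice, read 8.78, 7.47 and 6.91 in tumour Treg, 8.64, 8.47 and 7.17 in Tconv, and 8.75, 8.51 and 8.31 in CD8 cells. The spleen arrays gave 6.98, 4.33 and 4.15 in Treg, 6.20, 5.21 and 4.18 in Tconv, and 6.52, 5.13 and 4.10 in CD8 cells. The pattern was that of Lyz1, with the highest spleen values on BeadChip 1 and the lowest on BeadChip 3. Lyz2 rose by 2.91 ± 0.45 (adjusted p = 8.86e-04) on average, and the populations gave 2.57 ± 0.78, 2.90 ± 0.78 and 3.27 ± 0.78 (adjusted p = 0.127, 0.106 and 0.0624). The block brought these to adjusted p = 0.00323, 0.00236 and 8.75e-04. Whether the probes of such similar genes bind both transcripts was not tested, since probe sequences were not used here.

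C1qa, C1qb and C1qc encode the 3 chains of C1q, which starts the classical complement pathway and is made by tissue macrophages. C1qb read 7.28, 6.46 and 5.78 in tumour Treg, 7.69, 6.90 and 5.64 in Tconv, and 6.71, 8.00 and 6.92 in CD8 cells. In spleen C1qb read 6.94, 4.79 and 4.24 in Treg, 5.86, 5.66 and 4.19 in Tconv, and 5.94, 4.20 and 5.46 in CD8 cells. The tumour arrays of BeadChip 3 fell within the spleen range, which was highest for spleen Treg of BeadChip 1. C1qb rose by 1.56 ± 0.42 (adjusted p = 0.0431) on average, and the call was lost without any 1 of 13 of the 18 arrays.

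C1qc read 6.33, 6.09 and 5.39 in tumour Treg, 5.98, 6.70 and 4.90 in Tconv, and 5.80, 6.10 and 5.29 in CD8 cells. Its spleen levels were 5.71, 4.39 and 4.14 in Treg, 6.02, 4.28 and 4.24 in Tconv, and 4.96, 4.17 and 4.14 in CD8 cells, with 3 of 9 arrays detected, 1 of each population and all on BeadChip 1. Those 3 arrays overlapped with tumour and the other 6 did not. C1qc rose by 1.17 ± 0.31 (adjusted p = 0.0423), a call lost without any 1 of 12 of the 18 arrays. C1qa read 5.62, 5.37 and 4.86 in tumour Treg, 5.96, 5.93 and 5.03 in Tconv, and 4.96, 5.67 and 4.92 in CD8 cells. Its spleen values were 5.55, 4.18 and 4.53 in Treg, 5.40, 4.33 and 4.08 in Tconv, and 4.73, 4.15 and 4.47 in CD8 cells. The spleen Treg and Tconv arrays of BeadChip 1 were within the tumour range, and the average difference was 0.77 ± 0.23 (adjusted p = 0.0749, and 0.0282 with the BeadChip as a block).

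The remaining products of this role showed no tissue difference past the threshold. Ctss, a cathepsin of antigen processing that B cells and dendritic cells also make, was detected on all 18 arrays between 6.29 and 6.83, with an average difference of 0.05 ± 0.07 (adjusted p = 0.820). Cybb, the catalytic subunit of the phagocyte oxidase, stayed between 4.09 and 4.55 and differed by -0.01 ± 0.07 (adjusted p = 0.953).

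Of 4 measured Fc receptor genes and adaptors, 1 rose in each population and 3 on average. Of all genes, 1.73, 0.994 and 0.878 percent rose in Treg, Tconv and CD8 cells and 3.45 percent on average. Fcer1g, the common gamma chain that Fc receptors signal through, read 5.48, 5.42 and 5.37 in tumour Treg, 6.42, 5.90 and 5.13 in Tconv, and 6.70, 6.32 and 6.45 in CD8 cells. The spleen levels were 4.29, 4.09 and 4.12 in Treg, 4.75, 4.09 and 4.26 in Tconv, and 5.06, 4.16 and 4.55 in CD8 cells, with 3 of 9 arrays detected. Every tumour array was above every spleen array. Fcer1g was at least 2.28-fold higher in Treg (adjusted p = 0.0258), and it rose by 1.45 ± 0.28 (adjusted p = 0.0165) in Tconv and by 1.90 ± 0.28 (adjusted p = 0.00221) in CD8 cells. The Treg call was lost without any 1 of its 6 arrays (adjusted p = 0.0606 to 0.0998), and the Tconv call without 4 of its 6.

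Tyrobp, the DAP12 adaptor that pairs with activating receptors of myeloid and natural killer cells, read 8.09, 7.46 and 6.89 in tumour Treg, 8.65, 8.38 and 6.87 in Tconv, and 8.57, 8.72 and 7.95 in CD8 cells. In spleen it read 7.83, 5.89 and 5.10 in Treg, 7.74, 6.09 and 4.21 in Tconv, and 6.74, 5.27 and 5.89 in CD8 cells. The spleen Treg and Tconv arrays of BeadChip 1 were as high as tumour arrays, and those of BeadChip 3 were low. Tyrobp rose by 1.87 ± 0.46 (adjusted p = 0.0282) on average, lost without any 1 of 10 of 18 arrays, and gave 2.44 ± 0.80 in CD8 cells (adjusted p = 0.213, and 0.0305 with the block). The natural killer cell gene Klrk1, which CD8 cells also express, was higher in tumour by 0.72 ± 0.19 on average, and its part in the Tyrobp result was not tested.

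Fcgr3, a low-affinity activating receptor for antibody, read 4.40, 4.81 and 4.49 in tumour Treg, 5.95, 5.28 and 4.75 in Tconv, and 5.16, 4.84 and 5.05 in CD8 cells. Its spleen values were 4.43, 4.14 and 4.08 in Treg, 4.54, 4.31 and 4.55 in Tconv, and 4.12, 4.34 and 4.20 in CD8 cells, with 3 of 9 detected. Levels were low in both tissues, and the lowest tumour arrays, in Treg, overlapped with spleen. Fcgr3 rose by 0.67 ± 0.13 (adjusted p = 0.00656) on average and passed in 0 single populations. Fcgr2b, the inhibitory Fc receptor, stayed between 4.12 and 4.71 on all arrays and differed by 0.04 ± 0.09 (adjusted p = 0.884). Its 2 other passing probes were detected on 6 and 3 tumour arrays and on 0 spleen arrays, and they gave 0.32 ± 0.11 and 0.19 ± 0.06 on average without passing (adjusted p = 0.150 and 0.126). Fcgr1, the high-affinity receptor, was at 4.05 to 4.91 and did not pass the filter.

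Of 6 measured lipid-handling genes, 3 rose in each population and 6 of 6 on average, with a median of 2.19 over the role. Beside these counts, 1.73, 0.994, 0.878 and 3.45 percent of all genes rose in Treg, Tconv, CD8 cells and on average. Dab2 and Trem2 passed the filter only through the tumour arrays and Msr1 did not pass it, so the filter favoured these values. The same median was 1.17 for resident and secreted products, 1.10 for Fc receptors and adaptors, 0.86 for receptors and identity genes and 2.08 for the 2 genes of remodelling and arginine use. Differences between the roles were not tested. Gpnmb, a glycoprotein of lipid-laden macrophages and of pigment cells, read 9.04, 9.31 and 8.70 in tumour Treg, 8.46, 9.52 and 9.26 in Tconv, and 8.37, 8.00 and 9.29 in CD8 cells. In spleen it read 5.26, 5.89 and 5.80 in Treg, 4.71, 4.39 and 4.38 in Tconv, and 4.11, 4.10 and 4.07 in CD8 cells, with the 3 Treg arrays and 1 Tconv array detected. Tumour and spleen did not overlap, and within spleen the Treg arrays were the highest. Gpnmb rose by 3.37 ± 0.31 (adjusted p = 2.97e-05) in Treg and by 4.59 ± 0.31 (adjusted p = 1.49e-06) in Tconv, and it was at least 19.8-fold higher in CD8 cells (adjusted p = 5.25e-06). The melanocyte genes that moved with tissue are given above, and their part in the Gpnmb result was not tested.

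The Gpnmb promoter window, chr6:49036268-49036567 on the plus strand (GRCm38.p6, RefSeq), is shown because this gene, like Clec10a, passed in each population under all alternatives run. Capitals mark TGANTCA, the letters bound by AP-1 factors.
Gpnmb: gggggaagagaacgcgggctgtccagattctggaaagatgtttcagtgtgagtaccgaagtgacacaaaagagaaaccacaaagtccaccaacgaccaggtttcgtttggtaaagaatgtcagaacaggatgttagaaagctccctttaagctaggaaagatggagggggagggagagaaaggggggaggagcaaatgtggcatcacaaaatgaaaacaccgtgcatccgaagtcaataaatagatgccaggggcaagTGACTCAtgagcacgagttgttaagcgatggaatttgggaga
The match starts at base 259 of the window. TGANTCA was in 6 of the 30 member windows, those of Cd68, Cybb, Gpnmb, Mmp12, Ms4a7 and Trem2, and in 7.81 percent of all windows. CACGTG, the letters bound by MITF and related factors of pigment cells and lysosomes, was in 0 of the 30 and in 7.15 percent of all windows, and matches of different motifs overlapped in 0 member windows.

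Lpl, the lipase that frees fatty acids from lipoproteins, read 9.13, 8.00 and 6.86 in tumour Treg, 8.22, 8.64 and 7.01 in Tconv, and 7.96, 8.25 and 7.26 in CD8 cells. Its spleen levels were 4.66, 4.14 and 4.19 in Treg, 4.16, 4.11 and 4.21 in Tconv, and 4.82, 4.35 and 4.34 in CD8 cells, with 3 of 9 detected. Tumour arrays were far above spleen on every BeadChip, and lowest on BeadChip 3. Lpl rose by 3.66 ± 0.48 (adjusted p = 3.74e-04) in Treg and by 3.33 ± 0.48 (adjusted p = 0.00179) in CD8 cells, and it was at least 13.3-fold higher in Tconv (adjusted p = 5.05e-04).

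Dab2, an endocytic adaptor for lipoprotein receptors, read 7.93, 7.20 and 5.65 in tumour Treg, 7.98, 7.52 and 6.12 in Tconv, and 7.94, 7.71 and 7.33 in CD8 cells. In spleen it gave 4.22, 4.29 and 4.09 in Treg, 4.26, 4.19 and 4.11 in Tconv, and 4.15, 4.68 and 4.22 in CD8 cells, with 1 of 9 detected. The groups did not overlap, and tumour values were again lowest on BeadChip 3. Dab2 was at least 6.42-fold higher in Treg and at least 7.81-fold higher in Tconv (adjusted p = 0.00493 and 0.00391), and it rose by 3.31 ± 0.48 (adjusted p = 0.00194) in CD8 cells.

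Apoe, the apolipoprotein by which macrophages export cholesterol and which pigment cells can also make, read 6.72, 6.75 and 5.76 in tumour Treg, 6.71, 6.87 and 5.27 in Tconv, and 6.21, 6.38 and 5.92 in CD8 cells. Its spleen levels were 6.22, 4.59 and 4.28 in Treg, 6.03, 4.23 and 4.13 in Tconv, and 5.78, 4.69 and 4.31 in CD8 cells. The spleen arrays of BeadChip 1 lay within the tumour range and the other 6 below it. Apoe rose by 1.37 ± 0.35 (adjusted p = 0.0323) on average, a call lost without any 1 of 12 of the 18 arrays.

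Cd36, a scavenger receptor for oxidised lipoproteins, read 5.33, 4.95 and 4.83 in tumour Treg, 5.43, 5.24 and 4.66 in Tconv, and 5.27, 5.31 and 5.09 in CD8 cells. In spleen it read 4.92, 4.12 and 4.13 in Treg, 4.47, 4.29 and 4.14 in Tconv, and 5.24, 4.11 and 4.17 in CD8 cells. The spleen Treg and CD8 arrays of BeadChip 1 were within the tumour range. Cd36 rose by 0.72 ± 0.17 (adjusted p = 0.0204) on average. Trem2, a lipid-sensing receptor that signals through Tyrobp, read 4.84, 4.82 and 4.86 in tumour Treg, 5.02, 4.89 and 4.77 in Tconv, and 4.40, 6.46 and 4.59 in CD8 cells. Its spleen values were 4.10, 4.14 and 4.06 in Treg, 4.06, 4.18 and 4.16 in Tconv, and 4.12, 4.17 and 4.08 in CD8 cells, and 0 of 9 spleen arrays detected it. The groups did not overlap, but tumour levels were low except on the CD8 array of BeadChip 2. Trem2 was at least 1.66-fold higher on average (adjusted p = 0.0253), and the call was lost without 2 of the 18 arrays in turn. Msr1, a scavenger receptor, was at 4.07 to 4.23 and did not pass the filter.

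Both measured genes of tissue remodelling and arginine use rose on average, beside 3.45 percent of all genes. Both passed the filter only through the tumour arrays. Mmp12, the elastase of macrophages, read 7.95, 7.14 and 7.15 in tumour Treg, 6.27, 8.21 and 7.30 in Tconv, and 7.77, 7.07 and 7.39 in CD8 cells. The spleen arrays read 4.55, 4.19 and 4.09 in Treg, 4.07, 4.14 and 4.10 in Tconv, and 4.89, 4.21 and 4.10 in CD8 cells, with 2 of 9 detected. The groups were far apart, and no BeadChip was the lowest in all 3 tumour populations. Mmp12 rose by 3.14 ± 0.38 (adjusted p = 2.16e-04) in Treg and by 3.01 ± 0.38 (adjusted p = 5.18e-04) in CD8 cells, and it was at least 8.19-fold higher in Tconv (adjusted p = 3.59e-04).

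Arg1, the arginase of alternatively activated and tumour macrophages, read 4.83, 5.39 and 4.79 in tumour Treg, 5.10, 5.57 and 5.12 in Tconv, and 5.39, 6.24 and 4.97 in CD8 cells. Its spleen levels were 4.55, 4.17 and 4.23 in Treg, 4.11, 4.11 and 4.13 in Tconv, and 4.19, 4.10 and 4.27 in CD8 cells, with 1 of 9 detected. The groups did not overlap, though the lowest tumour arrays were close to the highest spleen array. Arg1 was at least 2.05-fold higher in Tconv and at least 2.42-fold higher in CD8 cells (adjusted p = 0.0423 and 0.0167), while Treg gave 0.69 ± 0.26 (adjusted p = 0.253). The Tconv call was lost without any 1 of its 6 arrays (adjusted p = 0.0759 to 0.190), and the CD8 call without either of 2 of its 6.

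Seen together by array, the members followed different patterns. All 9 tumour arrays were above all 9 spleen arrays for 9 members, Fcer1g, Arg1, Clec10a, Gpnmb, Lpl, P2ry6, Mmp12, Dab2 and Trem2, beside 0.473 percent of all genes tested. Of these 9, Arg1, Clec10a, P2ry6, Mmp12, Dab2 and Trem2 entered through the tumour arrays, so the count is a description only. Within spleen, the 3 arrays of BeadChip 1 were above the other 6 for 12 members, beside 2.04 percent of all genes. These were Csf1r, Lyz1, Lyz2, Adgre1, Tyrobp, C1qa, C1qb, C1qc, Mpeg1, Apoe, Cd36 and Ms4a7. Of 9 pairs of the same population and BeadChip, all 9 were higher in tumour for 19 members, beside 2.33 percent of all genes tested, 7 or 8 for 6 members, and 6 or fewer for 7 members. The limit of the filter holds for these pair counts as well.

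**Figure D4:**
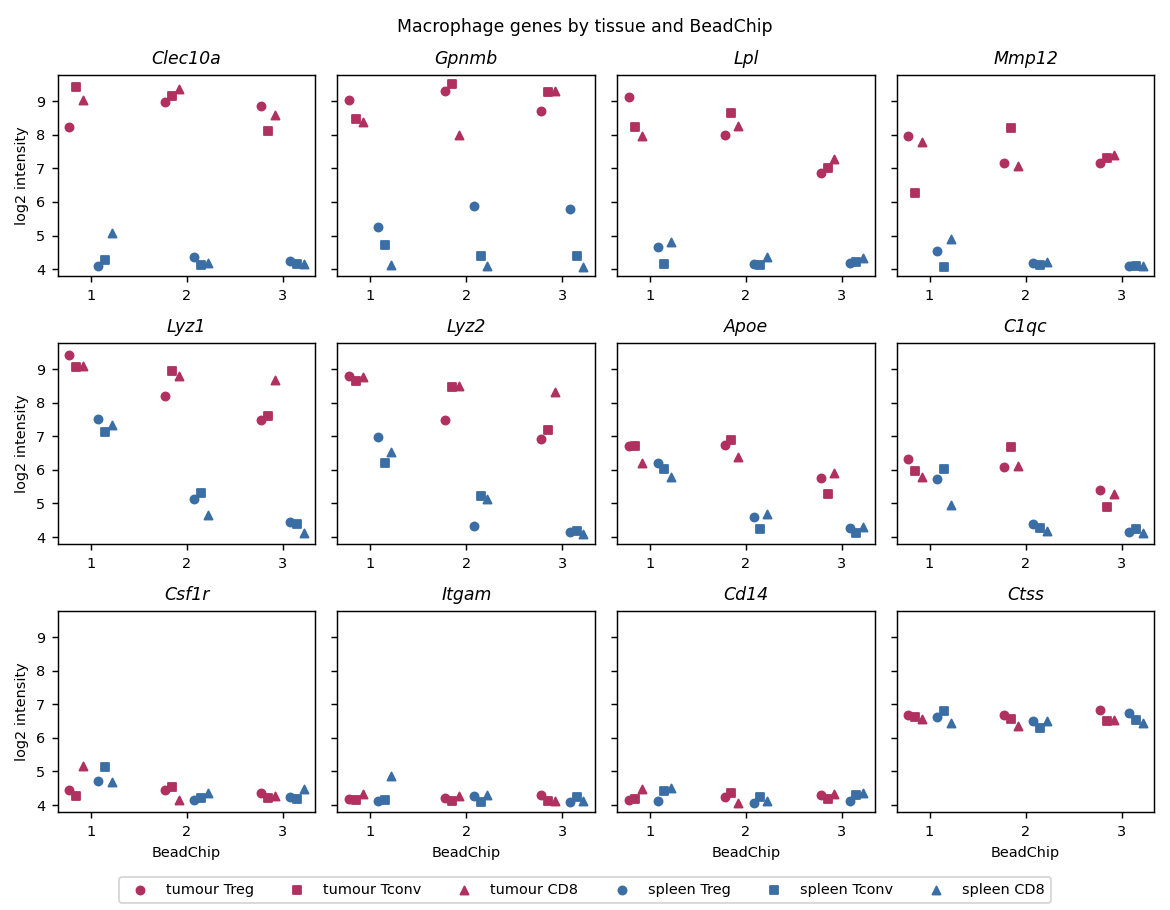
Log2 intensity of 12 macrophage genes on each array by BeadChip, with tumour in red, spleen in blue and 1 symbol for each population. Clec10a, Gpnmb, Lpl and Mmp12 are low in spleen on every BeadChip, Lyz1, Lyz2, Apoe and C1qc are higher in spleen on BeadChip 1, and Csf1r, Itgam and Cd14 lie near the floor.

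The BeadChip difference was fitted with a mean for each group and BeadChip terms within each tissue, a comparison added after the data were seen. In spleen, 4 members were higher on BeadChip 1 than on the mean of BeadChips 2 and 3, beside 0.267 percent of all genes. They were Lyz1 with 2.65 ± 0.24 (adjusted p = 7.95e-04), Lyz2 with 2.05 ± 0.29 (0.0139), Apoe with 1.64 ± 0.19 (0.00366) and C1qc with 1.34 ± 0.21 (0.0260). Clec10a gave 0.27 ± 0.27 and Gpnmb -0.08 ± 0.29 in the same comparison (adjusted p = 0.849 and 0.978). Tyrobp and Adgre1 gave 2.03 ± 0.37 and 1.30 ± 0.26 without passing (adjusted p = 0.0667 and 0.0988).

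In the same comparison of BeadChip 1 with the mean of 2 and 3 on tumour arrays, 0 members passed, beside 0.0137 percent of all genes, and 0 passed for the difference between the tissues, beside 0.048 percent. By their tumour means, 26 of the 32 members were lowest on BeadChip 3, which was not tested. Lyz1 gave 0.91 ± 0.24 in tumour (adjusted p = 0.343), and its spleen minus tumour difference was 1.74 ± 0.34 (adjusted p = 0.185). The spleen calls rested in part on single arrays: without the spleen Treg array or the spleen Tconv array of BeadChip 1, 2 members passed in place of 4.

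Levels in both tissues varied over the BeadChips. Lyz1 had spleen means of 7.33, 5.04 and 4.33 on BeadChips 1, 2 and 3 and tumour means of 9.19, 8.65 and 7.92. Its tumour minus spleen difference was 1.86, 3.61 and 3.60. Apoe had spleen means of 6.01, 4.50 and 4.24 and tumour means of 6.55, 6.67 and 5.65, so its differences were 0.54, 2.17 and 1.41. For C1qc the differences were 0.47, 2.02 and 1.02. Clec10a kept 4.41, 4.94 and 4.32, and Gpnmb 3.93, 4.15 and 4.34.

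Erythroid genes also differed between BeadChips. Their mean in spleen was 9.48 to 10.1 on BeadChip 1, 7.44 to 7.63 on BeadChip 2 and 8.24 to 8.72 on BeadChip 3, and 3 of 5 passed as higher on BeadChip 1. The mean of the macrophage genes in spleen was 4.44 to 4.62 on BeadChip 2 and 4.37 to 4.45 on BeadChip 3, ranges that overlapped. A difference between BeadChips 2 and 3 was not tested for either list. The BeadChip holds 1 set of replicates, so array batch and sample preparation cannot be told apart.

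**Figure D5:**
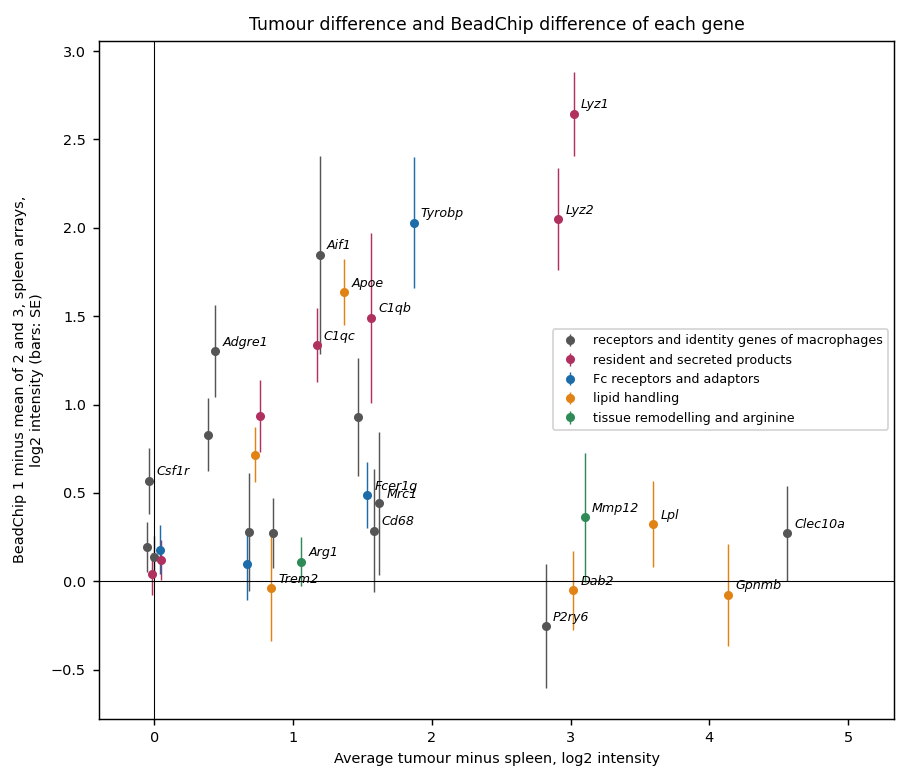
Average tumour minus spleen difference (x axis) against the difference of BeadChip 1 from the mean of BeadChips 2 and 3 on spleen arrays (y axis, bars are SE), both in log2 intensity, for each of the 32 macrophage genes and coloured by role. Lyz1 and Lyz2 lie high on both axes, and Clec10a, Gpnmb, Lpl, Mmp12, Dab2 and P2ry6 lie at 2.82 or more on the x axis and between -0.25 and 0.36 on the y axis.

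Members were also compared between the T cell populations of the tumour. Treg against Tconv gave 0 of 32 members past the threshold, beside 2.72 percent of all genes, with 1 member at an unadjusted p under 0.05. CD8 cells against Tconv gave 0, beside 0.521 percent, with 2 at an unadjusted p under 0.05. Treg against CD8 cells gave 1, Fcer1g, which fell by 1.07 ± 0.28 in Treg against CD8 cells (adjusted p = 0.0454), beside 1.55 percent of all genes lower. Fcer1g read 5.48, 5.42 and 5.37 in tumour Treg and 6.70, 6.32 and 6.45 in tumour CD8 cells, without overlap, and the call was lost without any 1 of those arrays. The T cell groups share the tumour arrays with the tissue comparisons above. Of the sorting genes, Foxp3 did not separate tumour Treg from Tconv (-0.02 ± 0.28, limma adjusted p = 0.994) or from CD8 cells (0.42 ± 0.28, 0.581). Its probe read 5.88 to 7.87 over all arrays, CD8 cells included, and whether it reports Foxp3 RNA was not tested. The average tumour minus spleen difference of this probe was -0.60 ± 0.16 (limma adjusted p = 0.0467). Il2ra, detected on 4 arrays, passed in neither comparison. Cd4 and Cd8b1 did separate tumour Treg from CD8 cells, at 4.13 ± 0.17 and -4.40 ± 0.43 (adjusted p = 3.30e-09 and 1.72e-05).

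The members' differences within tumour ran from -0.76 (Fcgr3) to 0.38 (Aif1) for Treg against Tconv, from -0.52 (Gpnmb) to 1.21 (P2ry6) for CD8 cells against Tconv and from -1.07 (Fcer1g) to 0.47 (Gpnmb) for Treg against CD8 cells. For Clec10a the Treg against Tconv difference was -0.20 with a 95% confidence interval of -0.90 to 0.49, for Lpl 0.04 with -0.98 to 1.06, and for Lyz2 -0.37 with -2.03 to 1.29. Intervals of this width leave differences of 1 or more on the log2 scale possible for many members. The tumour effect itself differed between populations for 0 members in each of 3 tests, beside 0.137, 0.233 and 0.0411 percent of all genes. The same tests had 1, 2 and 1 members at an unadjusted p under 0.05.

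Members with more than 1 passing probe allowed a check, and 10 members had 16 other passing probes. A dimmer Gpnmb probe gave 2.16, 1.40 and 1.98 in Treg, Tconv and CD8 cells and passed in all 3, whereas the dimmest gave 0.16, 0.38 and -0.07 and did not pass. The other Lyz2 probes gave 1.46 to 2.38 in the populations, with 1 of them past the threshold in CD8 cells (adjusted p = 0.0423), and both rose on average, by 1.84 and 1.99. With the BeadChip as a block, both passed in all 3 populations (adjusted p = 0.00126 to 0.0258). A dimmer Dab2 probe gave 1.67, 1.53 and 1.73 and passed in Treg and CD8 cells but not in Tconv (adjusted p = 0.0688), and the dimmest, at 0.15, 0.07 and 0.01, did not pass. The dimmer Arg1 probe gave 0.37, 0.31 and 0.45 and did not pass. On average over the populations, the other Aif1 probes gave 0.39 and 0.01, less than the probe used, and did not pass. The other Sirpa probe rose by 0.42 (limma adjusted p over probes = 0.0223), also less than the probe used. Those of Adgre1 gave 0.34 and 0.03, that of Ms4a7 0.21 and that of Csf1r 0.10, without passing.

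A longer list of 78 further macrophage genes had 66 measured, of which 7 rose in Treg, 7 in Tconv, 9 in CD8 cells and 17 on average, beside 1.73, 0.994, 0.878 and 3.45 percent of all genes, and 0 fell. With the BeadChip as a block, 10, 6, 9 and 18 rose, beside 1.79, 1.08, 0.885 and 3.51 percent of all genes. Their median difference was 0.27, 0.18 and 0.23 in the populations. Within tumour, 5 were higher in Treg than in Tconv, beside 1.9 percent of all genes higher, and 6 were higher and 1 lower in Treg than in CD8 cells, beside 2.72 percent higher and 1.55 percent lower. The 5 were Cebpb, Ccr2, Mmp14, Pparg and Ncf4, with differences of 1.05 to 1.66, and the lower one was Clec4d at -1.12 ± 0.26 (adjusted p = 0.0222), names chosen after their values were seen. With the block, 5 were higher than in Tconv, and 4 were higher and 1 lower than in CD8 cells. The share of all genes under the block is not given for these comparisons, so these block counts cannot be set against it. The 4 with the smallest p between tumour and spleen in Treg were Cebpb, a transcription factor of myeloid and other cells (1.81 ± 0.22, adjusted p = 2.50e-04), Ccr2, a chemokine receptor of monocytes and some T cells (at least 3.06-fold, 3.74e-04), Lgals3, galectin 3 (2.98 ± 0.41, 7.08e-04), and the chemokine Ccl9 (at least 5.47-fold, 0.00102). Cebpb read 5.53, 6.45 and 6.13 in tumour Treg and at most 5.02 on every other array. In Tconv they were Ccl9 (at least 6.68-fold, adjusted p = 6.96e-04), Lgals3 (3.09 ± 0.41, 9.19e-04), the collagenase gene Mmp13 (2.45 ± 0.39, 0.00391) and the heme oxygenase gene Hmox1 (1.67 ± 0.32, 0.0165). In CD8 cells they were Ccl9 (3.21 ± 0.37, adjusted p = 3.00e-04), the chemokine Ccl6 (at least 2.29-fold, 0.00796), Lgals3 (2.33 ± 0.41, 0.00934) and Mmp13 (at least 4.36-fold, 0.00953). Ccl9 read 5.93 to 7.87 on the tumour arrays and 4.08 to 4.52 on the spleen arrays. The groups did not overlap, beside 0.473 percent of all genes tested. The limit of the detection filter holds for this list too. Ccl9 was detected on 10 arrays, Ccl6 on 10 and Ccr2 on 6. Genes detected mainly on tumour arrays passed through those arrays, so these counts, the medians and the lack of overlap are descriptions only.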

How the data were processed

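Illumina BeadChip arrays measured RNA of 18 samples, from 2.5 ng amplified RNA each. The deposited file gives a bead intensity and a detection p-value for every probe, not normalized, per the file headers. A deposited value table of the same arrays, a linear intensity with column medians of 83.5 to 85.9 and an unstated scaling, served as an alternative. Of 46237 probes, 35784 had 1 gene name and 10453 had none. Names were updated by gene ID (28620) or accession (2637), or kept as given (4527). Values were background corrected from the detection p-values, quantile normalized and put on the log2 scale with an offset of 16 (limma 3.58.1 neqc, R 4.3.3). One linear model over 14581 genes and 18 arrays held a mean for each of 6 groups (12 residual degrees of freedom), with limma's moderated test and Benjamini-Hochberg adjustment at 0.05.

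The replicate number is the BeadChip, and the fit with it as a block (10 residual degrees of freedom) is given beside the members' calls that it changes. Arrays of the same BeadChip had a mean residual correlation of 0.0424 over all genes and 0.222 over the members. Values are given per array for members past the threshold in any comparison, with or without the block, and for Csf1r, Adgre1 and Itgam. For further macrophage genes, the 4 smallest p in each population were named. Members and lists were chosen with earlier results of these data known, so their counts are no independent evidence. The code was tested on simulated data.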

Additional observations from a re-analysis of the deposited data

How the results depend on the processing

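Over the alternatives other than leaving arrays out, Treg gave 5 to 9 members, Tconv 3 to 10, CD8 cells 6 to 12 and the average 16 to 22. The lowest Tconv value, 3, came from fitting only the groups compared, which leaves 6 arrays, and 59 of all genes rose there. With BeadChip as a replicate block, 9, 10, 12 and 22 members passed, beside 1.79, 1.08, 0.885 and 3.51 percent of all genes higher. Leaving out replicates gave 4 to 7 in Treg, 3 to 8 in Tconv, 4 to 10 in CD8 cells and 10 to 22 on average, and the lowest came without replicate 2. Without it, 71, 31, 40 and 223 of all genes rose in Treg, Tconv, CD8 cells and on average. With all arrays these were 252, 145, 128 and 503, so calls fell over all genes too. Without replicate 3, Tconv gave 4, CD8 cells 5 and the average 13, beside 37, 45 and 235 of all genes higher. Treg against CD8 cells in tumour gave 0 members without any replicate, with no filter on dim probes and with a fit of single probes. In these settings 208 to 565 of all genes passed. Treg against Tconv in tumour gave 0 to 1 over the left-out arrays. The BeadChip comparison in spleen, chosen after seeing the data, gave 4 members, and 2 to 5 without single arrays. It gave 2 with no background correction, with an offset of 50 or with the deposited value table, beside 39, 40 and 39 of all genes.

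Scaling by the median in place of quantiles moved the median of all genes by 0.13 in tumour against spleen Treg, so that changes there are relative to that shift, and gave 9, 7, 9 and 22 members. Of 1196 values of a named member under an alternative, 995 kept their direction and side of the threshold, 27 became stronger, 174 became weaker and 0 reversed. Clec10a and Gpnmb passed in every population under all alternatives run. Other members that passed in every population were less stable. Lpl and Dab2 were lost in each population without replicate 2, and Mmp12 without replicate 3. Fcer1g was lost in each without replicate 2 and without replicate 3. P2ry6 was lost in Treg and Tconv without replicate 1 and kept in CD8 cells. Dab2 in Treg was also lost with no background correction. Where these counts changed, the cause was not tested. Few arrays and probes near the floor limit what Csf1r, Cd14, Itgam, Cybb and Fcgr2b can show.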
